A study of Mus musculus with 2 samples.

Results

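The BCL2 family decides at the mitochondrion whether a cell lives or dies, and its messages were read here in RAW264.7, a macrophage-like cell line of the mouse, after infection with the retroviral vector MSCV encoding the microRNA miR-155 or with the empty vector. The list held 10 genes, 3 that promote survival and 7 that promote death, and a gene entered with every probeset (a set of short probes on the array for 1 transcript region) that the annotation gave to its symbol alone. Of the 10, 9 had such a probeset, out of 18193 genes so named on the array, and these 9 carried 29 probesets. Bax, which encodes a pore-forming effector, had none under its symbol in the annotation used and was not analysed here.

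Both groups were grown in the same medium with 10% fetal bovine serum, infected in the presence of polybrene, kept under puromycin at 7 µg/ml and cloned by limiting dilution. RNA of 5 clones was pooled in the miR-155 group and RNA of 5 clones in the empty-vector group, and each pool went onto 1 Affymetrix expression array. The groups therefore differed in the microRNA insert and also in which clones they held, and these cannot be told apart. With 1 array per group no test, error or p-value could be had, and every difference describes this pair of arrays. In pooled RNA, less message per cell and fewer cells with the message cannot be told apart either.

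Proteins of this family share short BCL2 homology (BH) domains. Pro-survival members such as BCL2, BCL-xL and MCL1 hold the effectors BAX and BAK in check on the outer mitochondrial membrane. The BH3-only proteins BIM, BID, BAD, PUMA and NOXA bind the survival proteins, and some also switch on the effectors, which then open pores that release cytochrome c and start the caspases. Much of the control is on the protein, by phosphorylation of BAD, cleavage of BID and rapid turnover of MCL1, and arrays read only the messages.

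A microRNA lowers messages that pair with its seed, bases 2 to 8. The mature strands of mouse miR-155 in RefSeq (build GRCm38.p6, plus strand, chr16:84714143-84714165 for the 5p strand and chr16:84714182-84714202 for the 3p strand) are shown because the miR-155 vector encodes this microRNA, with the seed in capitals. Neither strand was measured on the arrays.
mmu-miR-155-5p: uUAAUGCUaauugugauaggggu
mmu-miR-155-3p: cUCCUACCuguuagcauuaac
Of the 1679 mature mouse miRNA names in that table, 0 others share the seed of the 5p strand and 0 others that of the 3p strand. Messages of the 10 genes were not searched for seed matches here. Mir155hg, the host gene of miR-155, read 1.05 on the miR-155 array and 0.73 on the empty-vector array, and no source used here says which stretch of the host transcript the vector carries, so these readings do not check the labels.

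The median signal of all 45101 probesets was 14.1 on the miR-155 array and 15.4 on the empty-vector array. Macrophage markers were present: 10 of 11 reached a signal of 25.8 on the miR-155 array and 10 of 11 on the empty-vector array, with summed signals of 26314 and 25675. Single markers went both ways under these like sums. Of the 10, 3 were at least 1.5-fold higher with miR-155 and 2 lower, beside 5.32% and 5.99% of the 9097 genes defined below. Cd14, a co-receptor for lipopolysaccharide, read 4145 on the miR-155 array and 1728 on the empty-vector array (log2 ratio 1.26), and Adgre1, a surface receptor of macrophages, read 289 and 472 (log2 ratio −0.71). The part of these differences in the family's values was not tested. Of 25 markers of B, T or NK, neutrophil or mast, fibroblast and erythroid cells with a probeset, 2 reached it on the miR-155 array (the highest at 27.2) and 0 on the empty-vector array (the highest at 23.0). The value of 25.8 is the lowest geometric mean signal among the 9097 genes in the upper 50% of mean signal, each gene taken by its brightest probeset, and serves below as the signal floor. All 9 measured BCL2 family genes were among these 9097.

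By the brightest probeset, Bcl2, a survival gene, and Bad, a death gene, gave 1.5-fold or more signal with miR-155 than with the empty vector, and no member was 1.5-fold lower. That is 2 of 9 genes higher, where 5.32% of the 9097 genes were as much higher, and 0 of 9 lower, where 5.99% were. The other 7 stayed within 1.5-fold, as did 88.7% of all genes kept. The median log2 ratio (miR-155 over empty vector, so that values above 0 mean more signal with miR-155) was −0.04 over the 9 members and −0.05 over all genes kept. Of the 29 probesets, 22 read at or above the floor on both arrays, and of these 2 were 1.5-fold higher and 0 lower, beside 5.03% and 7.13% of the 15673 named probesets whose mean reached the floor. The 2 are the brightest probesets of Bcl2 and Bad, and both differences depend on which probeset is read.

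**Figure D1:**
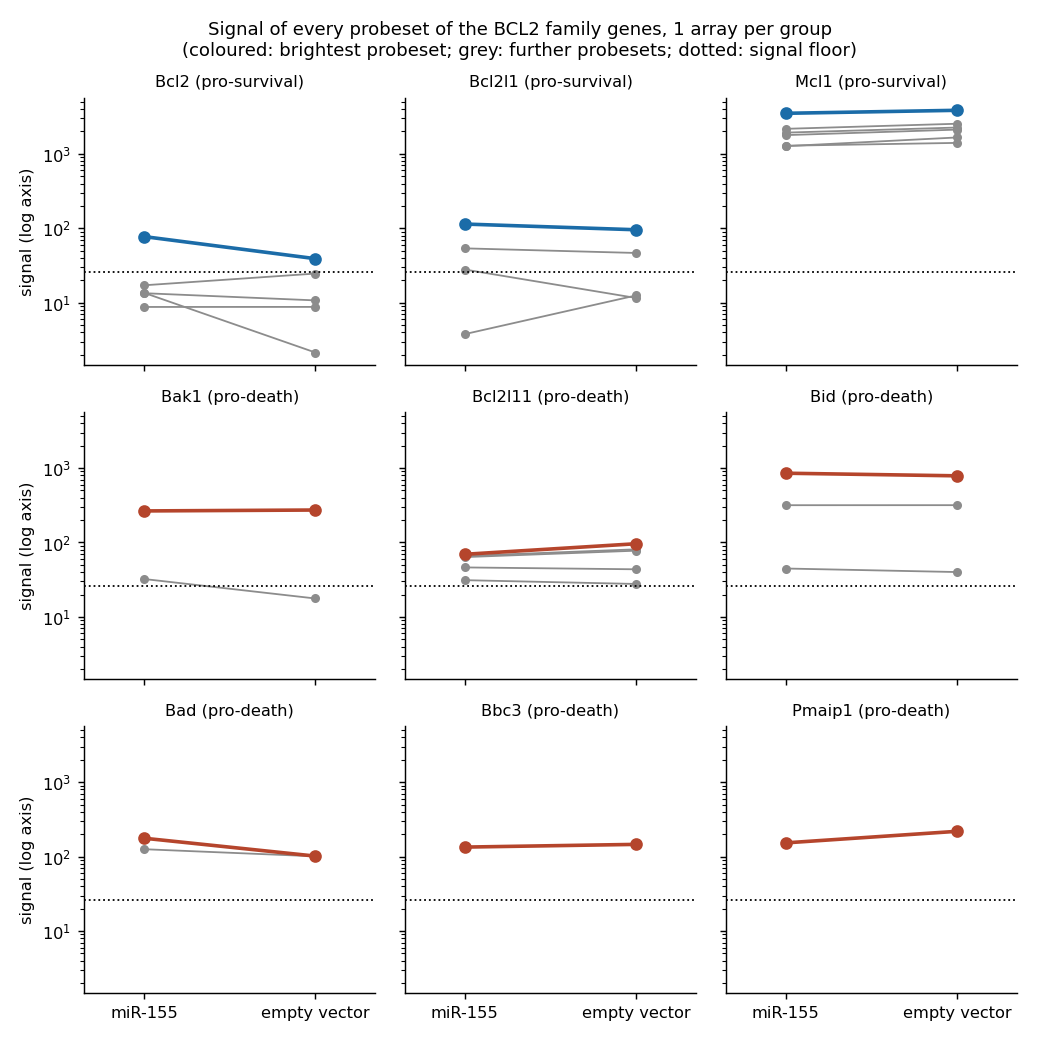
Signal (log axis) of every probeset of the 9 measured BCL2 family genes on the miR-155 array (left in each panel) and the empty-vector array (right), with coloured lines for the brightest probeset, grey lines for further ones and a dotted line at the signal floor of 25.8. All 6 Mcl1 lines lie lower on the miR-155 side, while only 1 of the 5 Bcl2 lines lies above the floor.

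Among the survival genes, Bcl2, the founding member of the family, read 77.5 on the miR-155 array and 39.1 on the empty-vector array in its brightest probeset. This is a 1.98-fold higher signal, or a log2 ratio of 0.99. Among the 500 probesets nearest in mean signal the robust SD of the log2 ratio was 0.44 around a median of −0.01, and Bcl2 lay 2.28 of these local SDs from that median. The local SD measures how widely probesets of like signal scatter between this pair of arrays, with real differences in it, and not the variation between clones or cultures.

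The other 4 probesets of Bcl2 read below the floor on both arrays. Their signals were 17.2, 13.5, 8.79 and 13.6 on the miR-155 array, against 24.7, 10.8, 8.80 and 2.15 on the empty-vector array. They went in both directions: the second-brightest was lower with miR-155, 1 was nearly equal and 2 were higher. The higher signal of Bcl2 thus rests on 1 probeset near the dim end of the genes kept, and no second probeset read above the floor to set beside it.

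Bcl2l1, which encodes BCL-xL and, by splicing, the shorter death-promoting BCL-xS, had 2 probesets above the floor, annotated to the same source sequence. The brighter read 114 on the miR-155 array and 95.7 on the empty-vector array, and the next 53.8 and 46.7. The log2 ratios were 0.25 and 0.21, both within 1 local SD (0.33 and 0.42) of the local median. Of the other 2 probesets, 1 read 28.0 on the miR-155 array and 11.6 on the empty-vector array and 1 read 3.80 and 12.6, in opposite directions and each with a reading below the floor. The files do not say which splice form a probeset detects.

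Mcl1, which encodes a short-lived survival protein, had 6 probesets, all far above the floor. The brightest read 3507 on the miR-155 array and 3849 on the empty-vector array. The other 5 read 2170, 1930, 1786, 1269 and 1287 with miR-155, against 2540, 2258, 2118, 1661 and 1405 in the same order with the empty vector. All 6 were lower on the miR-155 array, with log2 ratios from −0.39 to −0.13 around a median of −0.23, which is 1.09-fold to 1.31-fold lower. Bright probesets scatter little, and the local SD was 0.12 to 0.15 for these 6. The lowest, at −0.39, lay 2.09 local SDs below its local median, and the brightest, at −0.13, only 0.79 below. The 6 probesets read the same pool of RNA and 3 share a source sequence, so their common direction is not a replicate of the comparison. Another 3 carry the suffix _x_at, which the manufacturer gives to probesets with probes that can also match other transcripts, and these read −0.23, −0.23 and −0.13.

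**Figure D2:**
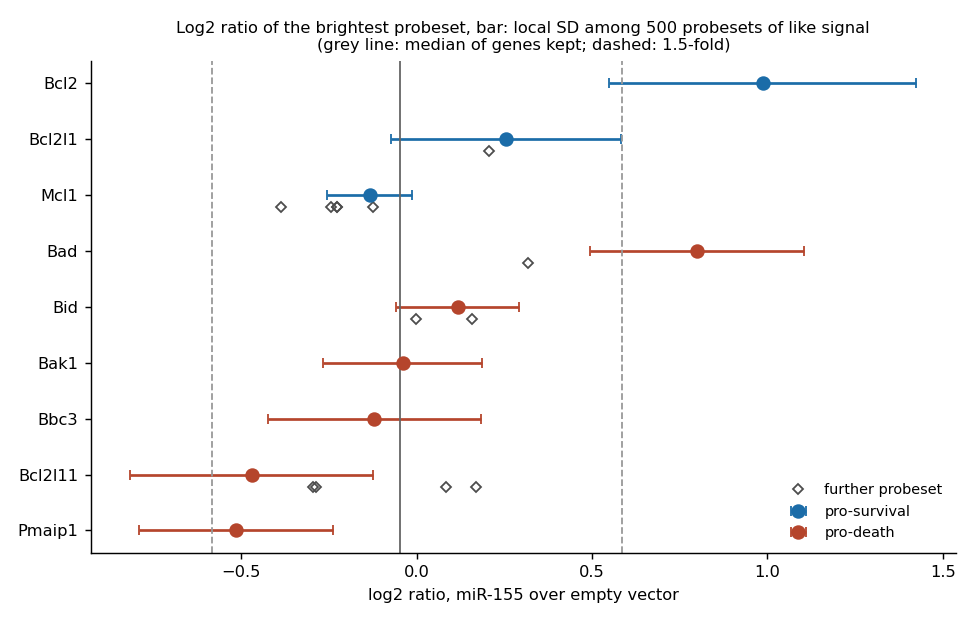
Log2 ratio of miR-155 over empty vector for the 9 measured genes, survival genes above death genes, with the brightest probeset as a filled point, the local SD as its bar and further probesets with both readings above the floor as diamonds. Bcl2 (0.99) and Bad (0.80) lie beyond the dashed 1.5-fold line, and the 5 diamonds of Mcl1 lie at or left of −0.13.

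Of the effectors, Bak1, which encodes the pore-forming BAK, read 265.3 on the miR-155 array and 272.8 on the empty-vector array. The log2 ratio of −0.04 lay 0.03 local SDs from the local median, and it became 0.04 when the median of all probesets was set to 0, so no direction is given. Its second probeset read 32.3 on the miR-155 array and 17.7 on the empty-vector array, where it lay under the floor. That probeset ends in _s_at, a suffix for probes shared between transcripts.

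The 5 BH3-only genes differed in direction. Their log2 ratios ran from −0.52 to 0.80 around a median of −0.12, and 1 of them, Bad, passed 1.5-fold.

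Bad encodes a sensitiser that survival kinases such as AKT phosphorylate and so keep away from BCL-xL. Its brighter probeset read 177 on the miR-155 array and 102 on the empty-vector array, 1.74-fold higher, with a log2 ratio of 0.80 and 2.76 local SDs (0.31) from the local median. Its other probeset, annotated to the same source sequence, read 126 and 101, a log2 ratio of 0.32 and 1.13 local SDs (0.32) from the local median. Both were higher with miR-155, but only the first passed 1.5-fold, and the mean of both was 0.56, below it.

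Pmaip1, which encodes NOXA, a partner of MCL1 and a p53 target, had 1 probeset. It read 153 on the miR-155 array and 219 on the empty-vector array, 1.43-fold lower, with a log2 ratio of −0.52 (local SD 0.28). This was the lowest ratio by a brightest probeset among the measured members of the main list and lay 1.64 local SDs below the local median.

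Bcl2l11, which encodes BIM, a potent activator that is induced when growth factors are withdrawn, had 5 probesets above the floor on both arrays. The 3 brighter ones read 69.4, 65.9 and 63.6 on the miR-155 array, against 96.2, 80.9 and 77.6 on the empty-vector array, with log2 ratios of −0.47, −0.30 and −0.29. The 2 dimmer ones read 46.2 and 31.2 on the miR-155 array, against 43.6 and 27.7 on the empty-vector array, with log2 ratios of 0.08 and 0.17. The brightest and the dimmest of the 5 are annotated to the same source sequence and pointed opposite ways. The largest of these differences was 1.19 local SDs from its local median.

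Bid, whose protein is cleaved by caspase-8 and carries the death-receptor signal to mitochondria, read 852 on the miR-155 array and 786 on the empty-vector array (log2 ratio 0.12, local SD 0.18). Its further probesets read 317 and 317, then 44.7 and 40.1, for log2 ratios of 0.00 and 0.16. Bbc3, which encodes PUMA, the other main p53 target of the class, read 134 and 146 in its single probeset (log2 ratio −0.12, local SD 0.30). Neither gene differed by as much as 1 local SD from its local median.

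**Figure D3:**
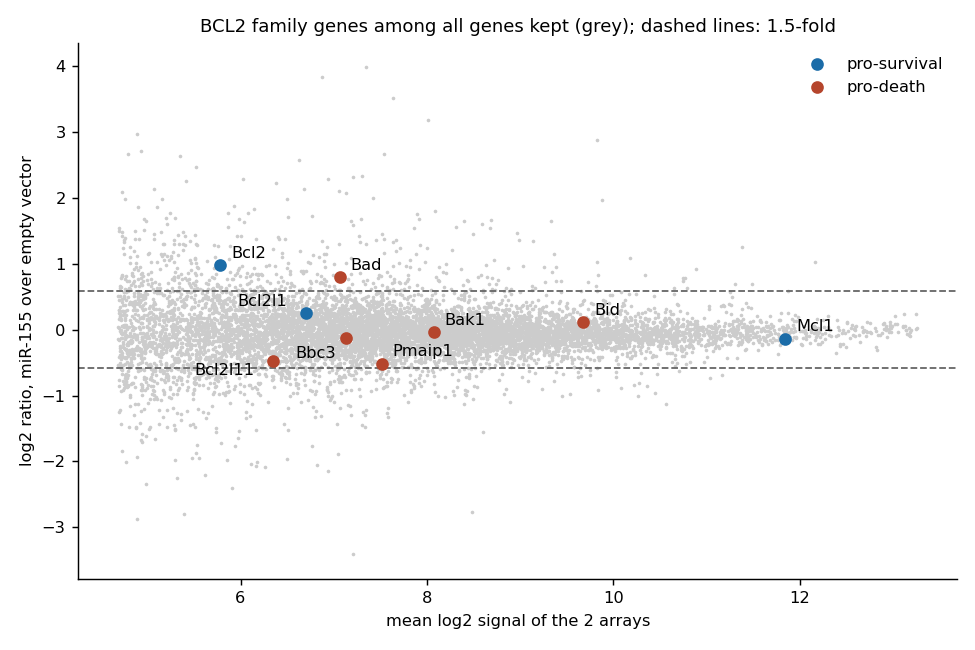
Log2 ratio of miR-155 over empty vector (vertical) against mean log2 signal (horizontal) for the 9097 genes kept (grey), with the survival genes in blue and the death genes in red. Dim genes scatter more than bright ones, and of the 9 members only Bcl2 and Bad lie outside the dashed 1.5-fold lines.

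Set against each other, the survival and death genes overlapped. The 3 survival genes had log2 ratios of 0.99, 0.25 and −0.13 and a median of 0.25, and the 6 measured death genes ran from −0.52 to 0.80 with a median of −0.08. The medians differed by 0.34. This difference depended on Bcl2 and on which probesets were read. With the mean of the probesets at the floor, the survival and death medians were 0.23 and −0.08. With the mean of all probesets they were 0.0007 and −0.015. Without Bcl2 the survival median was 0.06, and with the second-brightest probeset of each gene, an alternative added after the data were seen, it was −0.23 over 3 genes, against 0.16 over the 4 death genes that have one, so the order of the medians turned. Of these probesets, that of Bcl2 read below the floor on both arrays and that of Bak1 on the empty-vector array.

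The family holds further members, taken from a wider list. Of 16, 11 had a probeset and 4 were among the genes kept, around a median log2 ratio of 0.01. Past 1.5-fold, 1 of the 4 had more signal with miR-155 and 1 had less, beside 5.32% and 5.99% of all genes kept. Bmf, a BH3-only protein linked to the cytoskeleton, read 137 on the miR-155 array and 74.0 on the empty-vector array, 1.85-fold higher (log2 ratio 0.89, local SD 0.34), in a probeset ending in _s_at. Bnip3, a mitochondrial BH3-like protein that hypoxia induces and that acts in mitophagy, read 181 and 306, 1.69-fold lower (log2 ratio −0.76, local SD 0.25). Neither had a further probeset above the floor. Bcl2l2, which encodes the survival protein BCL-w, read 88.8 and 83.4 (log2 ratio 0.09). Bcl2l12 read 34.1 on the miR-155 array and 12.5, under the floor, with the empty vector, and was named after its values were seen.

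Downstream of the pores, none of 11 genes of the apoptosome and the mitochondrial intermembrane space and membrane differed by 1.5-fold. Of all genes kept, 88.7% stayed within 1.5-fold. Of the 11 genes, 10 had a ratio below 0, as did 58.0% of all genes kept, and the median of the 11 was −0.08. The nuclease Endog read 208 on the miR-155 array and 258 on the empty-vector array (log2 ratio −0.31, and −0.52 in its further probeset). Diablo, which encodes the IAP antagonist SMAC, read 210 and 259 (−0.30), and the channel Vdac3 1551 and 1876 (−0.27). The median of 11 genes of death receptors and caspase inhibitors was 0.09. Of these, 1 was 1.5-fold higher and none lower, beside 5.32% and 5.99% of all genes kept. That gene was Naip5, a sensor of bacterial flagellin with inhibitor-of-apoptosis repeats, which read 68.9 and 39.9 (log2 ratio 0.79, local SD 0.47). The death receptor Fas was not among the genes kept: it read 39.0 on the miR-155 array and 8.61, under the floor, with the empty vector, and was named after its values were seen. The adaptor Tradd read 172 and 126 (0.45, with −0.79 and 0.46 in its further probesets) and the adaptor Fadd 187 and 144 (0.37).

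Upstream, 15 transcription factors known to act on family genes had a median log2 ratio of −0.18. Of the 15, 0 were at least 1.5-fold higher and 1 lower, beside 5.32% and 5.99% of all genes kept. The lowest were the myeloid factor Spi1 (PU.1), which read 700 on the miR-155 array and 1067 on the empty-vector array (−0.61, local SD 0.18), Cebpb (−0.53, and −0.38 in its further probeset) and the NF-κB subunit Rela (−0.42). All 25 enzymes and partners of the proteins stayed within 1.5-fold, as did 88.7% of all genes kept, and the median of the 25 was −0.08. The kinases Pim1 (0.52, local SD 0.47) and Gsk3a (−0.43) and the calcium channel Itpr2 (0.48, and 0.72 in its further probeset) differed most. The median of 13 other p53 target genes was 0.03. Of the 13, 0 passed 1.5-fold upwards and 2 downwards, beside 5.32% and 5.99% of all genes kept. The 2 were Trp53inp1, which read 43.2 and 78.2 (−0.86, local SD 0.40), and Zmat3, an RNA-binding protein, which read 203 and 361 (−0.83, local SD 0.23). Gadd45g, which was not among the genes kept, read 11.5, under the floor, on the miR-155 array and 38.0 on the empty-vector array, and was also named after its values were seen. The largest ratio above 0 among the 13 was that of Phlda3, an inhibitor of AKT, at 0.47.

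**Figure D4:**
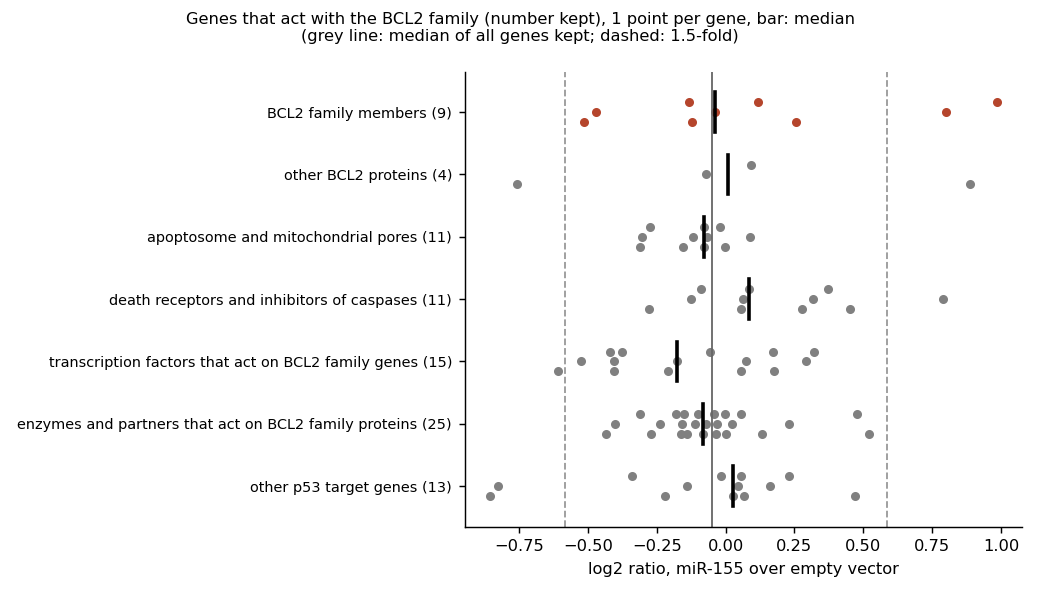
Log2 ratio of miR-155 over empty vector for the 9 BCL2 family genes (red) and 6 lists of genes that act with them (grey), 1 point per gene kept, with the list median as a black bar. Medians run from −0.18 to 0.09, and 8 points lie beyond the dashed 1.5-fold lines.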

How the data were processed

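Biotin-labelled RNA was hybridised to 1 array per group by the manufacturer's procedures, per the labels' protocols. The deposited values are probeset intensities, positive and on a linear scale from the values. How they were summarised, background-corrected and scaled is not stated in those sources, and no detection calls came with them. The precision of a dim probeset was therefore not measured. The scatter at like signal, which holds real differences too, is given instead.

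Symbols came from the platform annotation, checked by Entrez identifier against RefSeq (0 changed, 34741 probesets matched). Apart from 64 control probesets, 34945 probesets had 1 symbol, 932 several and 9160 none. Log2 ratios used the signals as deposited, with no offset. The brightest probeset by mean log2 signal stood for each gene, and the upper 50% of 18193 genes were kept. With 1 array per group no test was made, and genes were counted at 1.5-fold. The local SD is the scaled median absolute deviation of the log2 ratio among the 500 named probesets nearest in signal. The steps were tested on simulated data. Members and gene lists were chosen with earlier results of these data known. Named from each of the 6 lists were the 3 largest ratios with both readings at the floor, and any further gene beyond 1.5-fold. There were 11 alternatives. Python 3.11.15, numpy 2.4.6, pandas 2.3.3 and matplotlib 3.10.9 were used.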

Additional observations from a re-analysis of the deposited data

How the results depend on the processing

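The count of 2 BCL2 family genes at least 1.5-fold higher, beside 5.32% of all genes kept, became 0 with an offset of 50 (2.15% of all genes), 0 in the upper 25% of signal (2.42%, with 3 of the 9 genes kept) and 0 at 2-fold (1.92%). The upper 25% begins at a mean signal of 194, above Bcl2 (55.1) and Bad (134). That filter removed both genes, so its 0 says nothing about their ratios. The count became 1, Bcl2, with the mean of all probesets (7.84%) and with the mean of the probesets at the floor (5.07%). With the second-brightest probeset, chosen after seeing the data, the count was 1 (11.1%), and that gene was neither Bcl2 nor Bad but Bak1 (log2 ratio 0.87, with 1 reading below the floor). It was 2 in the other 5 alternatives, where 5.05% to 17.1% of all genes were as much higher. Some of these could not change any count or median of the members. Removing the filter, raising low readings to the floor and dropping probesets ending in _x_at or _s_at left all 9 brightest probesets and their values as they were. The count of lower genes was 0 in all 11 (1.43% to 21.2% of all genes). A 2-fold cut, an offset or a stricter filter could not raise it. The survival median of 0.25 turned to −0.13 in the upper 25% of signal, which keeps Mcl1 alone of the survival genes, and to −0.23 with the second-brightest probeset. In the other alternatives both medians moved by less than 0.30, the robust SD of the difference between probesets of 1 gene. With the mean of all probesets they still nearly met (0.0007 and −0.015). The log2 ratio of Bcl2 turned to −0.52 with its second-brightest probeset, whose readings are both below the floor. Of 70 values of single members under the alternatives, 65 moved by less than their local SD. Some of these 65 could not move, as the value read was unchanged. Mcl1 was below 0 in all 8 alternatives run on it (−0.23 to −0.06) and Pmaip1 in all 7 (−0.52 to −0.40). These directions were partly fixed in advance. Pmaip1 has 1 probeset, so it stayed at −0.52 where only the probeset changed. The floor and suffix alternatives left both genes at their main values. An offset cannot turn a sign. No paired analysis was possible because each group had 1 array. The number of arrays limits all of these values, and the scatter of dim probesets limits that of Bcl2.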
